A study of Mus musculus with 5 samples.

Results

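The nuclear oxidative phosphorylation genes are the mouse genes whose symbols begin with Nduf, Cox and a digit, Uqcr, Atp5 or Sdh. A gene was kept when it had at least 20 unique molecular identifiers (UMIs, each standing for 1 captured mRNA molecule) over all annotated cells of the 4 days, and 103 of 103 matching genes passed, among 18132 genes in the whole series. By textbook role they comprise 79 structural subunits and 24 assembly factors or related proteins. The choice used symbols and a total count only, and no difference between cells or days.

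The cells were live cells sorted by flow cytometry from the digested tibialis anterior muscle of C57Bl/6 mice. Muscle was uninjured at day 0, or taken 2, 5 or 7 days after injury with notexin, a myotoxic snake venom phospholipase. Mice were 4-month-old females at day 0, 7-month-old females at day 2, 4-month-old females at day 5 and 4-month-old males at day 7. RNA was counted with the 10x Chromium 3' v2 assay, and the deposited annotation gave each cell a type label. Each day was 1 matrix, with day 0 joined from 2 sequencing runs, so there was no replicate at any day and no difference between days or labels was tested against replicate spread. Age differed at day 2 and sex at day 7, and their part in a difference between days cannot be told apart from the injury. How many mice each library held is not given in the sources used here. Intact muscle fibres are too large for droplet capture, so the cells labelled mature muscle do not stand for whole fibres.

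Oxidative phosphorylation is carried out by 5 protein complexes of the inner mitochondrial membrane. Complexes I to IV pass electrons from NADH and succinate to oxygen and pump protons, and ATP synthase uses the proton gradient to make ATP. A small set of core subunits of complexes I, III, IV and ATP synthase is encoded in mitochondrial DNA (mtDNA), and all other subunits are nuclear. In skeletal muscle and heart, several complex IV subunits are replaced by muscle forms, with Cox6a2, Cox7a1 and Cox8b in place of Cox6a1, Cox7a2 and Cox8a. The 103 members held 7 core and 29 accessory subunits of complex I, 4 subunits of complex II, 8 of complex III, 11 common subunits and 5 tissue isoforms of complex IV, and 15 subunits of ATP synthase. The others were 7 assembly factors of complex I, 4 of complex II and 9 of complex IV, and 4 related genes.

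Since the results turn most on the paired complex IV isoforms, the 250 bases before the RefSeq start of 2 muscle forms and of their widely expressed partners are shown (GRCm38.p6, 5′ to 3′ on the gene's strand). Capitals mark matches on either strand to the letters CAGCTG (an E-box read by myogenic factors) or CCAAT.
Cox7a1 (chr7:30183921-30184170, plus strand): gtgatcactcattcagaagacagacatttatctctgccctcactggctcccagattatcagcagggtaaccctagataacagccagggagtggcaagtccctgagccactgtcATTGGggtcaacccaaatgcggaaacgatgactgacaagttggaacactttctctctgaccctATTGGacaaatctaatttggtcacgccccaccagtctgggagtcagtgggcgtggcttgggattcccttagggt
Cox7a2 (chr9:79759854-79760103, minus strand): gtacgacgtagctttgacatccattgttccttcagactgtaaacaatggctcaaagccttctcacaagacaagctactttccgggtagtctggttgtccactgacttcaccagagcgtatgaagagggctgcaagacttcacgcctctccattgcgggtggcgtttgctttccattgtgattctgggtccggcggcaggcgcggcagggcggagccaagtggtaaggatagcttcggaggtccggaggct
Cox8b (chr7:140900447-140900696, minus strand): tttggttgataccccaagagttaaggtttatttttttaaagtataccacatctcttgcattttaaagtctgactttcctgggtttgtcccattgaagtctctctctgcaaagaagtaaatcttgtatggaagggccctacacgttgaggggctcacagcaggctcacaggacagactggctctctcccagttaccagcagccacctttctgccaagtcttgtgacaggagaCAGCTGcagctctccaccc
Cox8a (chr19:7217617-7217866, minus strand): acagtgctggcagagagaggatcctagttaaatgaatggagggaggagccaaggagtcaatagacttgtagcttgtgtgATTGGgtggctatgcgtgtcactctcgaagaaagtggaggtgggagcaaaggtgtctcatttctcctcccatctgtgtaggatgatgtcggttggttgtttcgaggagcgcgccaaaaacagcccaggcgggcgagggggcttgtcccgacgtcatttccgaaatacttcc
The Cox8b window held an E-box of these letters close to the start and no CCAAT. The Cox7a1 window held 2 CCAAT matches, the Cox8a window 1, and the Cox7a2 window none of the motifs searched. Of the 103 members, 83 had a promoter sequence in the RefSeq table. CAGCTG lay in 6 of these 83 windows (7.23%), against 12.8% of 27025 promoters of all genes, the members being Atp5b, Cox8b, Ndufa8, Ndufb10, Ndufs5 and Ndufv2. The NRF1 motif GCGCATGC, read by nuclear respiratory factor 1, lay in 10.8% of the members' windows and 2.32% of all. The ETS motif CCGGAAG, which includes sites of nuclear respiratory factor 2, lay in 20.5% and 7.05%. CCAAT lay in 39.8% and 34.5%, and TATAAA in 7.23% and 13.0%. Both strands were searched, each motif was counted once a window, and a match says only that these letters occur there.

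The 4 libraries differed in depth. Day 0 had 5176 cells and 22330278 UMIs, day 2 had 4903 cells and 57723171 UMIs, day 5 had 2164 cells and 5986701 UMIs, and day 7 had 5680 cells and 40427212 UMIs. The median cell held 3832.5 UMIs at day 0, 9683 at day 2, 2018 at day 5 and 5991 at day 7. Members took 2.39% of all UMIs at day 0, 2.97% at day 2, 2.94% at day 5 and 2.53% at day 7. Libraries shared between 9 and 40 cell barcodes, at most 0.816% of the smaller library. All values below are summed counts per label, in percent of UMIs or in counts per 1000000 UMIs (cpm). The 3' assay counts molecules whatever the transcript's length, so levels are given without length correction. Intervals in brackets are exact 95% binomial intervals, which cover counting error only and not the spread between animals. Some labels went against their defining markers. The day 0 label Platelets carried endothelial markers at a mean of 6446 cpm and platelet markers at 8.25 cpm. The day 2 label B cells carried B cell markers at 0.611 cpm and general immune markers at 5325 cpm, and in the day 5 label of that name no B cell marker had a UMI. The day 0 label Neural/Glial/Schwann cells carried mature muscle markers at 6572 cpm and glial markers at 708.6 cpm.

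Cells labelled mature skeletal muscle held by far the highest share of these mRNAs. The share was 12.6% of UMIs at day 5 (12.4 to 12.7, 62 cells) and 11.8% at day 7 (11.7 to 11.9, 56 cells). Over the 28 labels and days other than mature muscle and the day 0 neural and glial label, the share lay between 1.92% and 4.95%, with a median of 2.65%. The next highest were myogenic cells, labelled muscle stem cells (MuSCs) and progenitors, with 4.95% at day 2, 3.88% at day 5 and 3.56% at day 7. Smooth muscle cells followed with 3.53% at day 0. Endothelial cells had 2.74% at day 0, 2.95% at day 2, 3.35% at day 5 and 3.01% at day 7. Fibro-adipogenic progenitors (FAPs, the muscle's matrix-producing mesenchymal cells) held 2.23% at day 0, 2.52% at day 2, 2.54% at day 5 and 2.24% at day 7, where a separate label of activated FAPs held 2.21%. Among leukocyte labels at day 7, NK/T cells had 3.07% and the second macrophage label 1.92%, the lowest of all labels. With every cell thinned to 1000 UMIs the mature muscle and FAP shares stayed close to these values, while MuSCs and progenitors stood at 3.63% at day 5 and 3.52% at day 7, smooth muscle cells at 3.76%, NK/T cells at 2.79% and the neural and glial label at 5.58%.

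**Figure D1:**
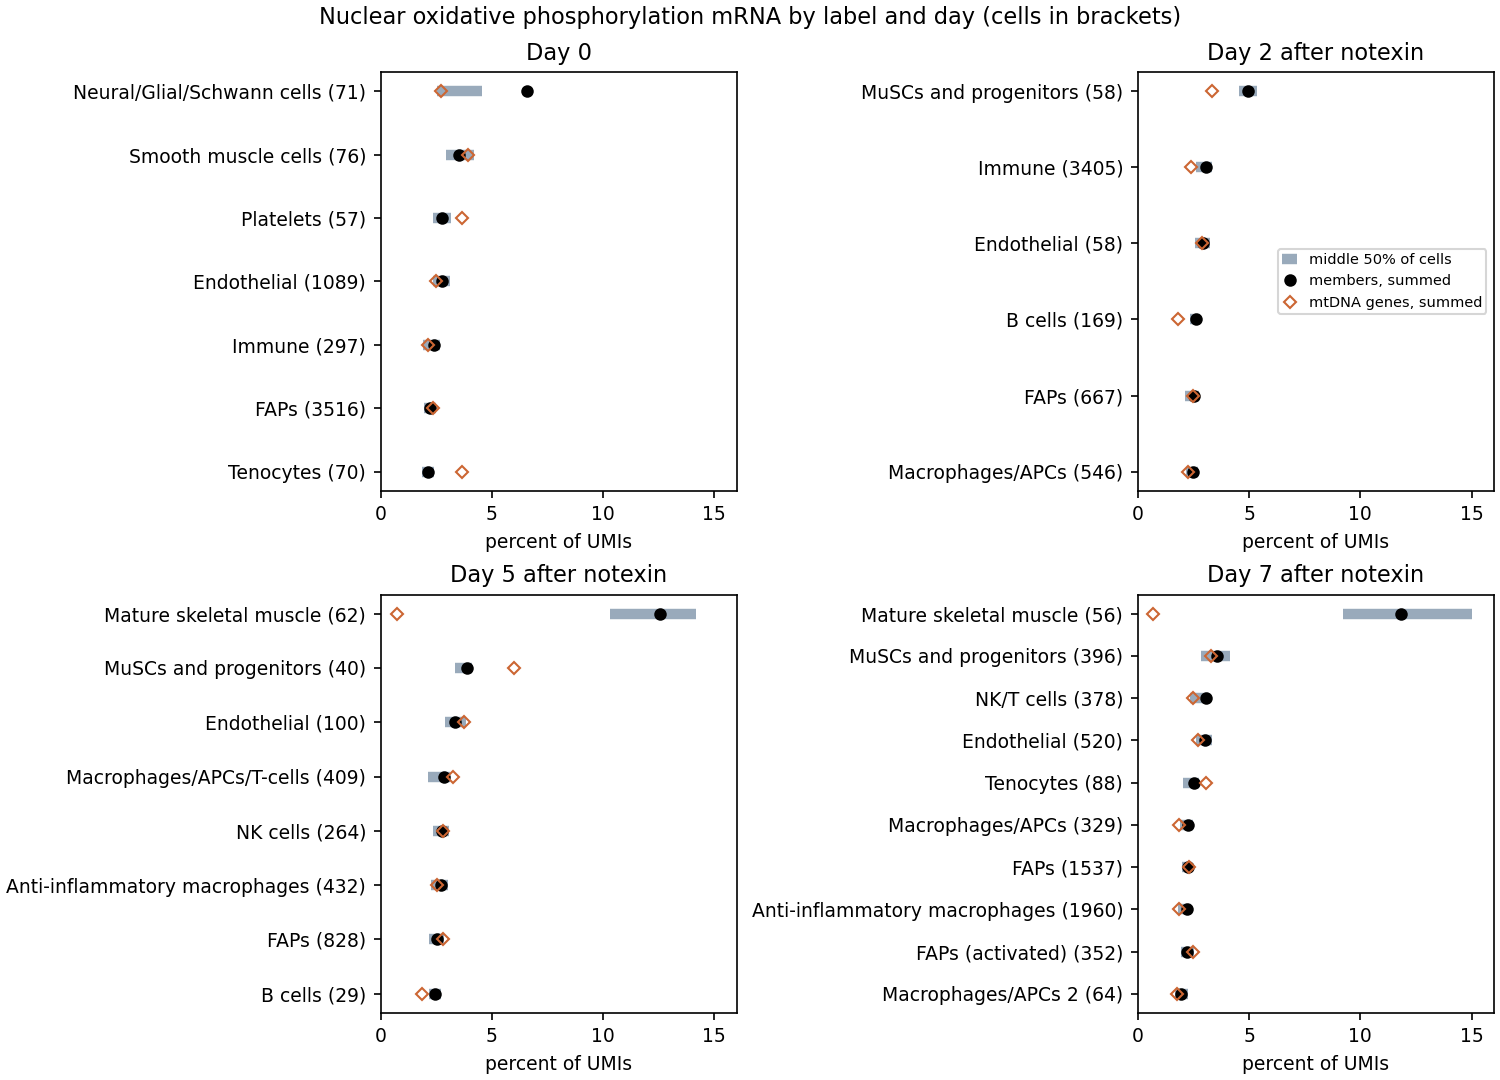
Share of UMIs from the 103 members for each label, with days in order, the summed counts as filled circles, the middle 50% of cells as bars and the share of mtDNA-encoded genes as open diamonds; cell numbers stand in brackets. Mature skeletal muscle sits at 12.6% on day 5 and 11.8% on day 7, with mtDNA-encoded genes at 0.742% and 0.700%.

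The day 0 label Neural/Glial/Schwann cells had 6.60% in summed counts, but only 3.12% in its median cell. When its 71 cells were divided after this was seen, 20 cells with at least 1% of their UMIs in mature muscle markers held 13.3% (13.1 to 13.5). The other 51 cells held 2.78% (2.71 to 2.85). The 20 cells thus lay at the level of the labelled mature muscle of days 5 and 7, and the 51 cells within the range of the other labels. The markers of the division are fibre proteins such as Acta1, Ckm and Mylpf and include no member. Values below for this label as a whole are those of a mixture.

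Mature skeletal muscle was set against FAPs of the same library, the largest non-immune class present on both days. Summed member counts stood 4.94-fold higher in mature muscle at day 5 (log2 ratio 2.31, 2.28 to 2.33) and 5.29-fold higher at day 7 (2.40, 2.39 to 2.42). A member was called when it had at least 20 UMIs over both groups and a difference of at least 2-fold. At day 5, 87 of 98 measured members were higher and 3 lower, while 12.4% of all genes were higher and 32.3% lower. At day 7, 89 of 103 were higher and 2 lower, while 11.2% of all genes were higher and 40.3% lower. The median log2 ratio was 2.18 for members and −0.27 for all genes at day 5, and 2.32 and −0.57 at day 7. The median of all genes depended on the minimum count and on depth. At days 5 and 7 it was 0.73 and 0.25 with no minimum, and −0.77 and −0.87 with a minimum of 50 UMIs. With cells thinned to 1000 UMIs it was −0.12 and 0.55. Of the 103 members, 90 had their highest level among day 5 labels in mature muscle, and 91 did so at day 7. The mean of the deposited log-normalized values over cells differed by 0.97 at day 5 and 1.05 at day 7 on the natural log scale, averaged over members. Mature muscle markers summed to 123640 cpm in mature muscle and 638.8 cpm in FAPs at day 5, and to 205410 and 523.6 cpm at day 7.

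All 7 nuclear core subunits of complex I, which form its electron-carrying arm, stood higher on both days, with medians of 2.42 at day 5 and 2.36 at day 7. Of the 29 accessory subunits, which surround that core, 29 stood higher at day 5 and 27 at day 7. Ndufa2 and Ndufa13 are the complex I members with the most UMIs in the series. Ndufa2 had 2489 cpm in mature muscle and 624.0 cpm in FAPs at day 5, and 1426 and 395.3 cpm at day 7. Ndufa13, also known as a cell death regulator, had 1297 and 555.1 cpm at day 5, but 739.6 and 561.3 cpm at day 7, where it was not called. Ndufc2 was the other accessory subunit not called at day 7.

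Complex II oxidises succinate and is the only complex with all subunits encoded in the nucleus. Sdhb, its iron-sulphur subunit, had 556.7 cpm in mature muscle and 84.3 cpm in FAPs at day 5 (log2 ratio 2.72, 2.35 to 3.08). At day 7 it had 1075 and 164.4 cpm (2.71, 2.56 to 2.85). The membrane anchors Sdhc and Sdhd stood 2.09 and 1.52 higher on the log2 scale at day 5, and 2.71 and 2.31 higher at day 7. Sdha, the flavoprotein, did not pass 2-fold on either day, with 98.2 and 78.2 cpm at day 5 and 119.4 and 66.6 cpm at day 7. The level of Sdha in mature muscle was thus the lowest of the 4 subunits, and it differed least from FAPs.

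Complex III passes electrons from ubiquinol to cytochrome c. All 8 of its subunits among the members stood higher on both days, and its subunits outside the symbol rule are not counted here. Uqcrh had 2574 cpm in mature muscle and 1156 cpm in FAPs at day 5, and 3133 and 828.7 cpm at day 7. Uqcrb had 2705 and 461.8 cpm at day 5, and 3043 and 412.3 cpm at day 7. The group's sum stood 2.29 higher at day 5 and 2.82 higher at day 7 on the log2 scale.

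All 15 subunits of ATP synthase among the members stood higher on both days, by 2.49 and 2.60 in their sum. Its mtDNA-encoded subunits are not among them and are given below with the other mtDNA genes. Atp5l and Atp5e, small subunits of the membrane part and the stalk, had 5606 and 5010 cpm in mature muscle, against 1237 and 986.4 cpm in FAPs, at day 5. Subunit c, which forms the rotating ring, comes from 3 genes with the same mature protein. Atp5g1 made up 55.2% of the UMIs of these genes in mature muscle at day 5 and 65.3% at day 7. It made up 30.8% in FAPs at day 5 and 39.4% in FAPs at day 7. Atp5g1 alone stood 3.73 higher in mature muscle than in FAPs at day 5 and 3.76 higher at day 7, against 1.98 and 1.54 for Atp5g2.

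Assembly factors, which help build the complexes without staying in them, also mostly stood higher in mature muscle. At day 7, 5 of 7 complex I, 3 of 4 complex II and 7 of 9 complex IV assembly factors were higher, and at day 5 it was 4 of 6, 3 of 4 and 6 of 8 measured. Those not called at day 7 were Ndufaf2, Ndufaf7, Sdhaf1, Cox16 and Cox18. Whether this share differs from that of the subunits was not tested.

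**Figure D2:**
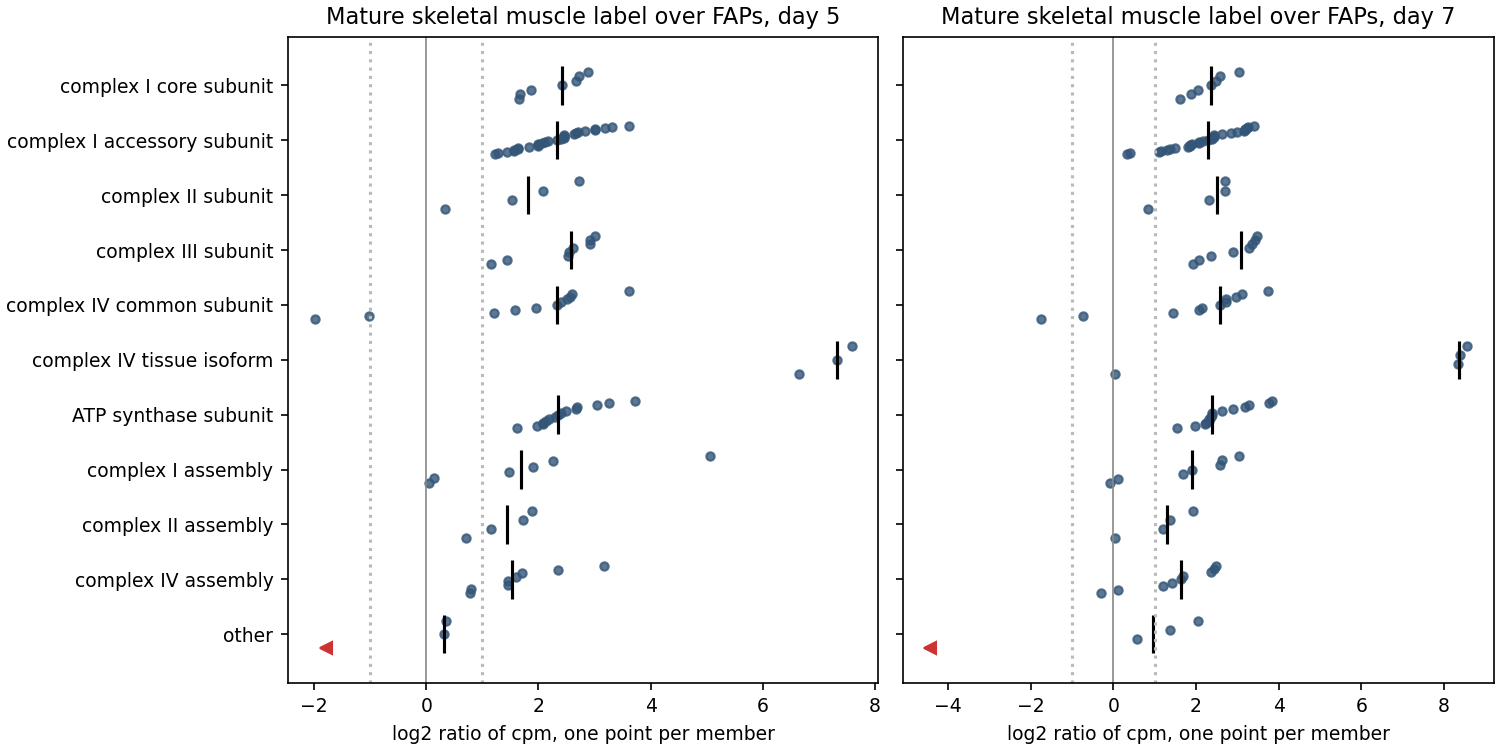
Log2 ratio of cpm in mature skeletal muscle over FAPs at day 5 (left) and day 7 (right), one point per measured member by role, with group medians as black bars, 2-fold as dotted lines and red triangles for upper bounds of members with no UMI in mature muscle. Cox6a2, Cox7a1 and Cox8b lie apart at 6.65 or more, and Cox6a1 and Ndufa4l2 lie lowest; Cox4i2 has too few UMIs for a bound and is not drawn.

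Complex IV reduces oxygen to water, and its common subunits split into different patterns. On each day, 9 of 11 were higher in mature muscle. Cox4i1, the member with the most UMIs in the series at 181387, had 3013 cpm in mature muscle and 1303 cpm in FAPs at day 5, and 3443 and 1263 cpm at day 7. The exceptions were the partners of muscle isoforms. Cox6a1 had 189.9 cpm in mature muscle and 753.3 cpm in FAPs at day 5 (log2 ratio −1.99, −2.57 to −1.46), and 153.9 and 515.7 cpm at day 7 (−1.74, −2.11 to −1.40). Cox8a had 275.1 and 558.2 cpm at day 5 (−1.02, −1.50 to −0.58), and 420.3 and 696.8 cpm at day 7 (−0.73, −0.95 to −0.52), where it was not called. Cox7a2 went the other way, with 1709 and 441.6 cpm at day 5 and 1491 and 337.7 cpm at day 7.

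The muscle isoforms themselves showed the largest ratios among members. Cox6a2 (GRCm38 chromosome 7, 128205435 to 128206387, minus strand) had 3353 cpm in mature muscle and 17.5 cpm in FAPs at day 5 (log2 ratio 7.58, 7.17 to 8.03). At day 7 it had 1298 and 4.02 cpm (8.33, 7.94 to 8.75). Cox8b (chromosome 7, 140898945 to 140900446, minus strand) had 2980 and 18.5 cpm at day 5, and 989.9 and 2.98 cpm at day 7. Cox7a1 (chromosome 7, 30184144 to 30186078, plus strand) had 1618 and 16.1 cpm at day 5, and 1275 and 3.40 cpm at day 7. All 3 are protein-coding genes of chromosome 7 in the GENCODE annotation. The common subunit with the highest ratio was Cox5a, with 2679 cpm in mature muscle and 218.4 cpm in FAPs at day 5 (log2 ratio 3.62), and 3312 and 248.8 cpm at day 7 (3.73).

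Within each pair, the share taken by the muscle isoform differed between the pairs. Cox6a2 made up 94.6% of the UMIs of Cox6a2 and Cox6a1 in mature muscle at day 5 (92.4 to 96.4) and 89.4% at day 7 (86.7 to 91.7). Cox8b made up 91.5% of its pair with Cox8a at day 5 and 70.2% at day 7. Cox7a1 made up 48.6% of its pair with Cox7a2 at day 5 and 46.1% at day 7. Thus Cox6a1 and Cox8a were the minor forms, while Cox7a1 and Cox7a2 were present in similar number. The mixed neural and glial label of day 0 had 79.5% for Cox6a2, 59.1% for Cox8b and 49.7% for Cox7a1. In MuSCs and progenitors the 3 muscle isoforms stayed at or under 2.80% of their pairs on every day.

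**Figure D3:**
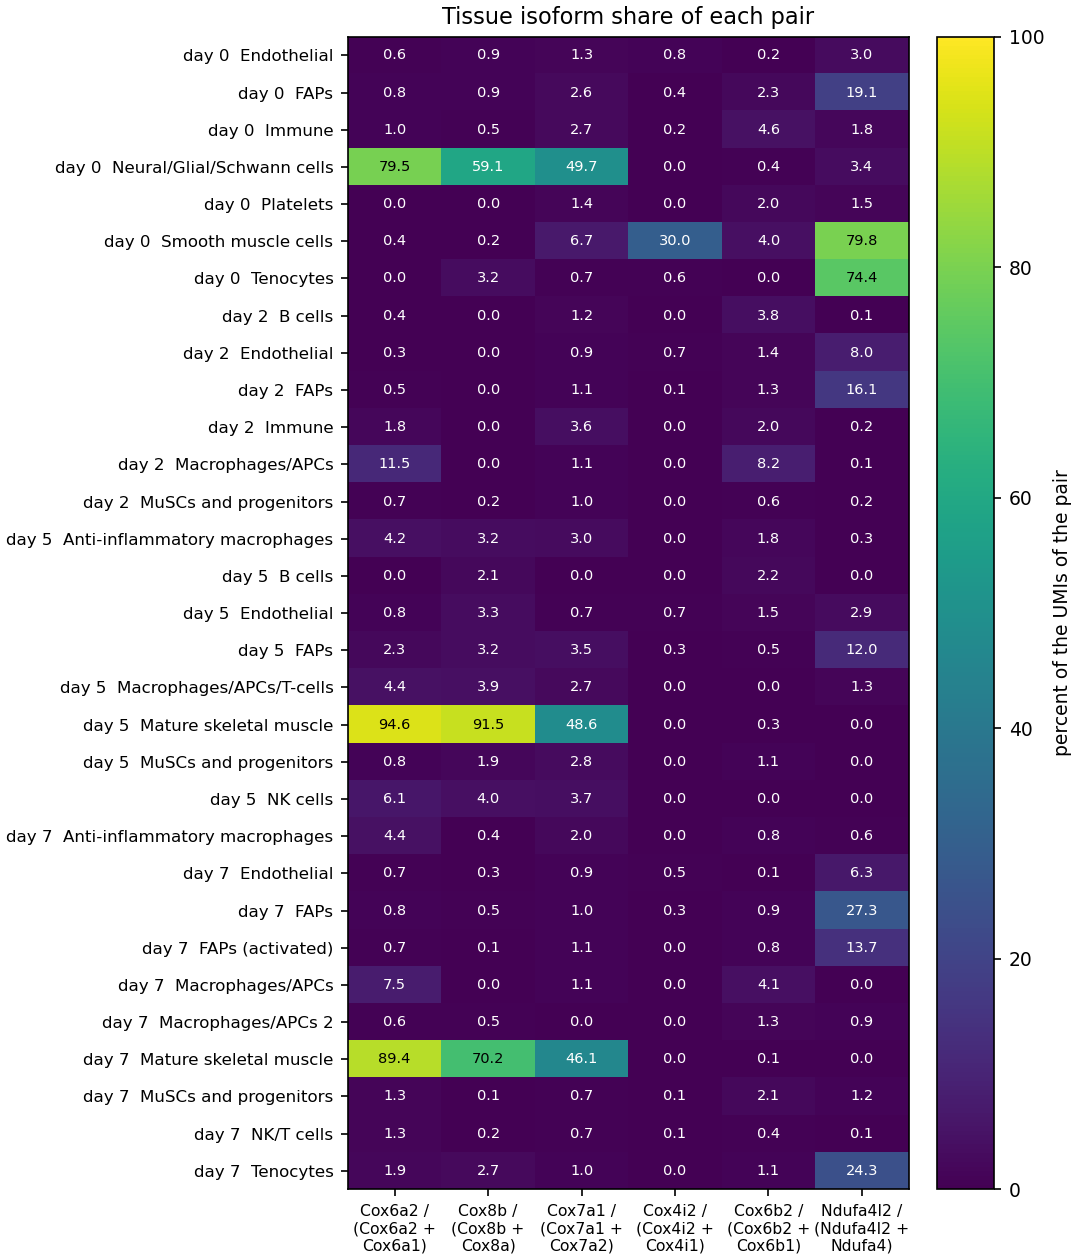
Share of the UMIs of each isoform pair that came from the tissue isoform, by label and day, on a colour scale from 0 to 100 with the value printed in each cell. Cox6a2 and Cox8b take most of their pairs in mature skeletal muscle and Cox7a1 takes 48.6% and 46.1% of its pair, Cox4i2 stands out only in smooth muscle cells, and Ndufa4l2 stands highest in smooth muscle cells and day 0 tenocytes.

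Other tissue isoforms marked other cells. Cox4i2, known as the lung form of subunit 4, had 632.4 cpm in smooth muscle cells (30.0% of its pair with Cox4i1) and at most 11.6 cpm in any other label. After thinning, 31 of 76 smooth muscle cells (40.8%) had a Cox4i2 UMI, against 15 of 3516 FAPs of the same day (0.427%). Ndufa4l2, a hypoxia-responsive paralogue of Ndufa4, had 1356 cpm in smooth muscle cells and 774.4 cpm in tenocytes at day 0, above the 93.9 cpm of FAPs. It had 148.7 cpm in FAPs at day 7 and no UMI in mature muscle, which was at least 21.6-fold lower (floor of 3 counts over the group). At day 5 it was at least 3.46-fold lower in mature muscle, where FAPs had 67.9 cpm.

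Macrophage labels also held 2 of the tissue isoforms. At day 2, the label Macrophages/APCs (antigen-presenting cells) had Cox6a2 at 65.2 cpm (301 UMIs) and Cox6b2, known as the testis form of subunit 6b, at 59.4 cpm (274 UMIs). After thinning, 32 of 546 of these cells (5.86%) had a Cox6a2 UMI. The same label had Cox6a2 at 38.9 cpm at day 7. Cox7a1 had 853 UMIs in the day 2 label Immune (21.3 cpm). These UMIs were set against mature muscle markers in the same cells. There were 1013 Cox6a2 UMIs per 1000 mature muscle marker UMIs in day 2 Macrophages/APCs, and 122.7 in the day 7 label. In mature muscle and the neural and glial label there were between 6.32 and 31.6. The Cox7a1 value in the day 2 Immune label was 556.4 per 1000, against at most 17.7 in those labels. Other cells had high values too. Cox7a1 stood at 162.5 in day 2 FAPs and 306.1 in smooth muscle cells, but 23.5 in B cells and 18.3 in MuSCs of day 2. Cox6a2 stood at 346.4 in Immune and 108.3 in FAPs of day 2, but 7.83 in B cells and 9.17 in MuSCs. Mature muscle markers summed to only 26.1 cpm in FAPs and 38.3 cpm in Immune at day 2.

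Genes of the same organelle outside the list did not all follow the members in mature muscle. Of the 16 citrate cycle genes, 12 stood higher than in FAPs at day 5 and none lower, and 14 stood higher and 1 lower at day 7. Of the mitochondrial ribosomal protein genes, 46 of 71 measured stood higher at day 5 and 39 of 76 at day 7, with none lower. Cytochrome c and its partners in a list of other nuclear subunits and carriers had 5 of 8 higher at day 5 and 6 of 8 at day 7. The 13 mtDNA-encoded subunits went the other way, with 12 lower and none higher on each day. Their sum was 7420 cpm in mature muscle and 28068 cpm in FAPs at day 5 (log2 ratio −1.92), and 6996 and 23182 cpm at day 7 (−1.73). Of the mitochondrial biogenesis regulators, 3 of 8 stood higher and 2 lower at day 5, and 4 of 11 higher and 3 lower at day 7. Other assembly and coupling factors had 11 of 20 higher and 3 lower at day 5, and 15 of 27 higher and 1 lower at day 7. Across the 31 labels and days, which share libraries within a day, the member share and the mtDNA share had Pearson's r = −0.36 and Spearman's rho = 0.34, and 0.39 and 0.63 over the 29 without mature muscle, given as a description.

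MuSCs and progenitors are the cells that rebuild fibres. In summed counts their member share was the highest after mature muscle and the mixed day 0 neural and glial label. With cells thinned to 1000 UMIs, smooth muscle cells at 3.76% stood above the 3.63% of MuSCs at day 5 and 3.52% at day 7. The share of MuSCs and progenitors was highest at day 2. Summed counts stood lower at day 5 than at day 2 (log2 ratio −0.35, −0.39 to −0.31) and lower at day 7 than at day 2 (−0.48, −0.49 to −0.46). At day 5, 2 of 96 measured members were higher and 25 lower, with 18.8% of all genes higher and 22.4% lower. At day 7, 2 of 100 were higher and 13 lower, with 25.9% of all genes higher and 8.58% lower. The median member ratio was −0.61 at day 5 and −0.38 at day 7, beside −0.06 and 0.27 for all genes. With cells thinned to 1000 UMIs the median of all genes was −0.52 and 0.10, and with no minimum count 1.19 and 0.15. Without mitochondrial and ribosomal protein genes in the cpm, 4 members were higher and 17 lower at day 5. Only 40 cells and 127030 UMIs stood behind the day 5 values, and the 58 cells of day 2 had a median of 34387 UMIs, against 9683 over all cells of that library.

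Complex II and the assembly factors of complex I stood furthest below their day 2 level at day 5 in these myogenic cells. The 7 complex I assembly factors summed to 332.9 cpm at day 2, 86.6 cpm at day 5 (log2 ratio to day 2 −1.94, −2.95 to −1.09) and 198.5 cpm at day 7 (−0.75, −0.92 to −0.58). The 4 subunits of complex II summed to 1019 cpm at day 2, 314.9 cpm at day 5 and 752.2 cpm at day 7. Their log2 ratio to day 2 was −1.69 at day 5 (−2.18 to −1.24) and −0.44 at day 7 (−0.53 to −0.35). At day 7 the ratio was −0.64 for complex III (−0.68 to −0.60) and −0.63 for complex IV assembly factors (−0.75 to −0.51), both below that of complex II. Sdhb had 674 UMIs (386.9 cpm) at day 2, 7 UMIs (55.1 cpm) at day 5 and 709 UMIs (253.1 cpm) at day 7. Sdhc and Sdhd were also called lower at day 5, and Sdha was not. The nuclear core of complex I had a log2 ratio of −1.02 at day 5 and −0.06 at day 7. Complex II was not lower at day 5 in myogenic cells alone. It had 458.3 cpm at day 0 and 318.5 cpm at day 5 in FAPs, and 518.2 and 347.7 cpm in endothelial cells. The day 0 label Immune had 434.8 cpm, and leukocyte labels of day 5 had 173.4 to 374.4 cpm. In FAPs, complex I assembly factors had 162.3 and 120.3 cpm on these days, and the nuclear complex I core 772.4 and 499.6 cpm.

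Single members differed strongly in the myogenic cells. Ndufaf4, an assembly factor of complex I, had 2 UMIs (15.7 cpm) at day 5 and 236 UMIs (135.5 cpm) at day 2. Atp5g1 had 1388 cpm at day 2, 283.4 cpm at day 5 and 508.0 cpm at day 7. Its share of the subunit c genes was 42.2% at day 2, 18.1% at day 5 and 30.0% at day 7. Atp5k, subunit e of ATP synthase, had 129.9 cpm at day 7 and 559.1 cpm at day 2 (log2 ratio −2.11, −2.28 to −1.93). Cox18, which inserts a complex IV subunit into the membrane, had 14.6 cpm at day 7 and 48.2 cpm at day 2 (−1.72, −2.30 to −1.16). Cox17, a copper chaperone, had 45.0 and 146.4 cpm (−1.70, −2.02 to −1.39). The members called higher were Cox7a1 and Ndufaf1 at day 5, with 3 UMIs each, and Cox6b2 and Ndufa4l2 at day 7, with 48 and 26 UMIs. Cox4i1 varied little by comparison, with 1876 cpm at day 2, 2204 cpm at day 5 and 2004 cpm at day 7.

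Other mitochondrial genes of the myogenic cells stood lower too. At day 5, 10 of 16 citrate cycle genes and 55 of 76 mitochondrial ribosomal protein genes were lower than at day 2, and none was higher. At day 7 these were 4 of 16 and 16 of 76. The mtDNA-encoded subunits made up 3.33% of UMIs at day 2, 6.00% at day 5 and 3.27% at day 7. They thus stood higher at day 5 (log2 ratio of the sum 0.85, 0.81 to 0.88), while the nuclear members stood lower. The mtDNA sum also stood higher at day 5 than at day 0 in FAPs (0.25), endothelial cells (0.58) and immune-labelled cells (0.37). In those classes the sum of the nuclear members stood higher too, by 0.19, 0.29 and 0.20.

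The day 7 myogenic cells were not uniform. With every cell at 1000 UMIs, the 59 cells with a UMI of Myog, the differentiation factor myogenin, held 4.56% of UMIs in members (4.40 to 4.74). The 337 cells without one held 3.34% (3.28 to 3.40). The middle 50% of cells ran from 4.00% to 5.20% with Myog and from 2.60% to 3.90% without. The 32 cells with a UMI of Pax7, the stem cell factor, held 3.39%, and the 364 without one held 3.53%. This division was chosen after the data were seen and the cells are of 1 library, so it is a description. At day 2 the 50 cells without a Myog UMI held 4.87%, above the Myog cells of day 7.

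Outside muscle, shares moved little between days. In FAPs the summed ratio to day 0 was 0.17 at day 2 (0.17 to 0.18), 0.19 at day 5 (0.18 to 0.20) and 0.0033 at day 7 (−0.0035 to 0.010). At day 2, 1 of 103 members was higher and 4 lower, with 10.9% of all genes higher and 14.1% lower. At day 5, 5 were higher and 6 lower, with 10.2% of all genes higher and 10.3% lower. At day 7, none was higher and 6 were lower, with 9.99% of all genes higher and 10.6% lower. With cpm taken without mitochondrial and ribosomal protein genes, the counts were 2 higher and 4 lower at day 2, 6 and 4 at day 5, and 1 and 6 at day 7. The median member ratio was 0.015 at day 2, −0.04 at day 5 and −0.06 at day 7, beside −0.17, −0.014 and −0.08 for all genes. The sum and the median thus differed in sign at days 5 and 7, since members with many UMIs weigh more in the sum, and the mean ratio of −0.05 at day 2 differed in sign from both. The mean of the deposited log-normalized values put day 5 lower than day 0 (−0.05), so the direction of the sum depended on the scale. Atp5g2 was the member called higher at day 2, with 581.0 cpm, against 262.3 cpm at day 0 (log2 ratio 1.15, 1.09 to 1.21). Cox8b had no UMI at day 2 and 103 at day 0 (6.30 cpm), at least 19.3-fold lower. Mature muscle markers in FAPs summed to 26.1 cpm at day 2 and 222.6 cpm at day 0. At day 5, Cox6a2 and Cox8b stood higher than at day 0, beside 638.8 cpm of muscle markers. Per 1000 marker UMIs, Cox8b had 29.0 UMIs in FAPs at day 5 and 28.3 at day 0, and 24.1 in day 5 mature muscle. In day 2 FAPs Cox8b had 0 per 1000 (0 to 15.5), whereas Cox6a2 had 108.3 and Cox7a1 162.5. The part of muscle RNA in these values was not tested.

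Endothelial cells stood slightly higher than at day 0 on every day, by 0.11 at day 2, 0.29 at day 5 (0.25 to 0.33) and 0.13 at day 7 on the log2 scale. At day 2, 1 of 100 measured members was higher and 4 lower, with 6.58% of all genes higher and 19.7% lower. At day 5, 8 of 101 were higher and 9 lower, with 11.4% of all genes higher and 15.6% lower. At day 7, none of 102 was higher and 3 were lower, with 7.08% of all genes higher and 10.0% lower. Without mitochondrial and ribosomal protein genes in the cpm, 10 were higher and 5 lower at day 5, and 2 and 2 at day 7. The median member ratio was 0.03 at day 2, 0.12 at day 5 and 0.16 at day 7, with a mean of −0.04 at day 2. The day 5 log-normalized mean again went the other way (−0.05). Ndufa4l2 was the member called higher at day 2, with 47.6 cpm and 21.9 cpm at day 0. Uqcrc1, a core subunit of complex III, had 8 UMIs (46.4 cpm) at day 5 and 184.0 cpm at day 0. Only 58 endothelial cells at day 2 and 100 at day 5 stand behind these values.

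In immune-labelled cells, summed counts at day 2 stood 0.32 higher than at day 0 (0.31 to 0.34), or 1.25-fold. This was above the 0.17 of FAPs at day 2, but without mitochondrial and ribosomal protein genes in the cpm the day 2 ratio was 0.32 in immune-labelled cells and 0.37 in FAPs, and the day 5 ratio of immune-labelled cells was 0.38. At day 2 the median of all genes was −0.29. It was −0.68 with no minimum count, −0.21 with a minimum of 50 UMIs and −0.14 with cells thinned to 1000 UMIs. The median member stood 0.28 higher at day 2 than at day 0, and 83 of 101 measured members lay above 0. Few passed 2-fold, with 2 higher and 2 lower, beside 7.82% of all genes higher and 22.7% lower. At day 5 the sum stood 0.20 higher and the median member ratio was −0.03, with 6 of 101 members higher and 7 lower, beside 13.5% and 13.2% of all genes. At day 7 its log2 ratio was −0.05, with 3 of 102 higher and 5 lower, beside 8.42% and 16.2%. The log-normalized mean reversed the last 2 directions, to −0.11 at day 5 and 0.04 at day 7. The labels pooled here differ by day, and at day 2 the label Immune had 3.06%, B cells 2.60% and Macrophages/APCs 2.49%.

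Single members of the immune-labelled cells differed by more. Ndufaf3, an assembly factor of complex I, had 16.2 cpm at day 0, 33.1 cpm at day 2 and 33.9 cpm at day 7. Ndufc1, a small accessory subunit, had 285.4 cpm at day 2 and 146.7 cpm at day 0 (log2 ratio 0.96, 0.78 to 1.15). Cox6b2 had 6.55 cpm at day 7 and 31.1 cpm at day 0 (−2.25, −2.73 to −1.75). Cox16, an assembly factor of complex IV, had 49.1 cpm at day 0, 19.2 cpm at day 2 and 12.7 cpm at day 7. Cox6a2 had 5.99 cpm at day 0 from 10 UMIs, 18.1 cpm at day 2, 32.1 cpm at day 5 and 21.01 cpm at day 7. Mature muscle markers in the same cells summed to 222.2 cpm at day 0, 47.9 cpm at day 2, 861.8 cpm at day 5 and 696.5 cpm at day 7. Per 1000 marker UMIs, Cox6a2 had 38.3 UMIs in anti-inflammatory macrophages and 32.6 in Macrophages/APCs/T-cells at day 5, beside 27.1 in mature muscle of that day. NK cells of day 5 had 49.9 (30.1 to 78.1), and B cells had 0 (0 to 63.4). At day 7 the value was 25.7 (22.9 to 28.8) in anti-inflammatory macrophages and 32.3 in NK/T cells. It was 122.7 in Macrophages/APCs and 10.4 in Macrophages/APCs 2, beside 6.32 (5.81 to 6.86) in mature muscle of day 7. The part of muscle RNA in the immune values of days 5 and 7 was not tested.

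Tenocytes, the fibroblasts of tendon, were labelled at days 7 and 0 only. Their member share was 2.52% at day 7 and 2.13% at day 0 (log2 ratio 0.24, 0.20 to 0.27). Of 89 measured members, 1 was higher and 2 lower, with 12.9% of all genes higher and 7.8% lower. Ndufa4, a subunit of complex IV despite its name, had 577.0 cpm at day 7 and 266.3 cpm at day 0. Its paralogue Ndufa4l2 had 185.6 cpm at day 7 and 774.4 cpm at day 0 (−2.06, −2.36 to −1.77). The Ndufa4l2 share of the pair was 24.3% at day 7 and 74.4% at day 0. Ndufa3 was the other member called lower. Without mitochondrial and ribosomal protein genes in the cpm, 1 member was higher and 1 lower.

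**Figure D4:**
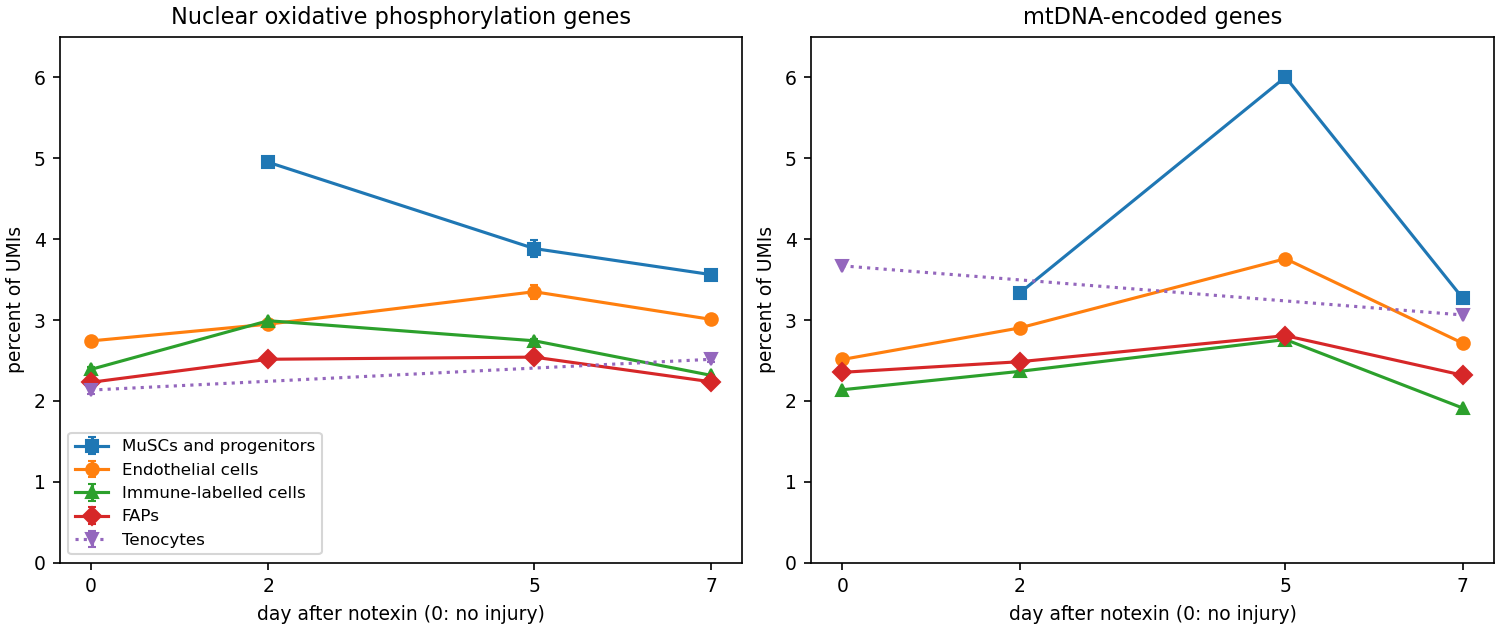
Share of UMIs from the 103 members (left, bars for exact 95% intervals) and from mtDNA-encoded genes (right) by day for 5 classes, dotted where a class has 2 days only. MuSCs and progenitors run highest on the left, with 4.95% at day 2, 3.88% at day 5 and 3.56% at day 7, and peak on the right at 6.00% on day 5.

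A few members moved the same way in FAPs, endothelial and immune-labelled cells of the day 5 library. Of 99 members measured in all 3 classes, 4 were higher in each (Atp5k, Cox17, Cox8b and Uqcrh) and 3 were lower in each (Atp5b, Ndufv1 and Uqcrc1). Among all genes, 1.79% were higher and 1.91% lower in each. Cox8b rested on 3 UMIs in endothelial cells at day 5 (log2 ratio 1.51, −0.89 to 3.27). Mature muscle markers also stood higher in each class at day 5, with 638.8 cpm against 222.6 cpm at day 0 in FAPs, 770.6 against 286.2 cpm in endothelial cells and 861.8 against 222.2 cpm in immune-labelled cells, and their part in the Cox8b values was not tested. At day 2 no member was higher or lower in each, with 1.14% and 3.64% of all genes. At day 7 no member of 101 was higher and 2 (Cox16 and Cox17) were lower in each, with 1.11% and 2.54% of all genes. All 3 classes are set against the same day 0 library and share the later library as well, so they are not independent of each other.

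Cox17 had 68.7 cpm at day 0, 173.5 cpm at day 5 and 24.5 cpm at day 7 in FAPs. It had 176.9, 475.1 and 67.8 cpm on these days in endothelial cells, and 107.8, 338.8 and 47.5 cpm in immune-labelled cells. In each class it was highest at day 5 and lowest at day 7. Over all FAP, endothelial, immune, MuSC and tenocyte labels, Cox17 ran from 68.4 to 176.9 cpm in the 4 labels of day 0 and from 54.5 to 146.4 cpm in the 6 of day 2. It ran from 173.5 to 598.5 cpm in the 7 of day 5 and from 23.8 to 113.3 cpm in the 9 of day 7. Atp5k ran from 338.3 to 771.5 cpm at day 5, which overlaps the 559.1 cpm of day 2 MuSCs alone, and from 69.6 to 135.0 cpm at day 7, under every label of another day. Uqcrh, a hinge protein of complex III, ran from 1082 to 2204 cpm at day 5, and the only labels of other days in that range were MuSCs and progenitors, at 1301 cpm on day 2 and 1182 cpm on day 7.

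Those that stood lower at day 5 were catalytic or core subunits. Atp5b, the catalytic beta subunit of ATP synthase, had 209.2 cpm in FAPs, 324.5 cpm in endothelial cells and 234.2 cpm in immune-labelled cells at day 5. At day 0 these classes had 581.0, 690.3 and 555.8 cpm. Over the same FAP, endothelial, immune, MuSC and tenocyte labels, Uqcrc1 ran from 39.0 to 102.3 cpm at day 5, under the lowest such label of every other day, which was 104.4 cpm at day 7. Mature muscle, which is not among them, had 275.1 cpm of Uqcrc1 and 144.1 cpm of Ndufv1 at day 5. Ndufv1, the NADH-binding subunit of complex I, ran from 22.5 to 70.8 cpm in these labels at day 5 and from 23.9 to 166.7 cpm at day 7, so that its labels overlapped.

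**Figure D5:**
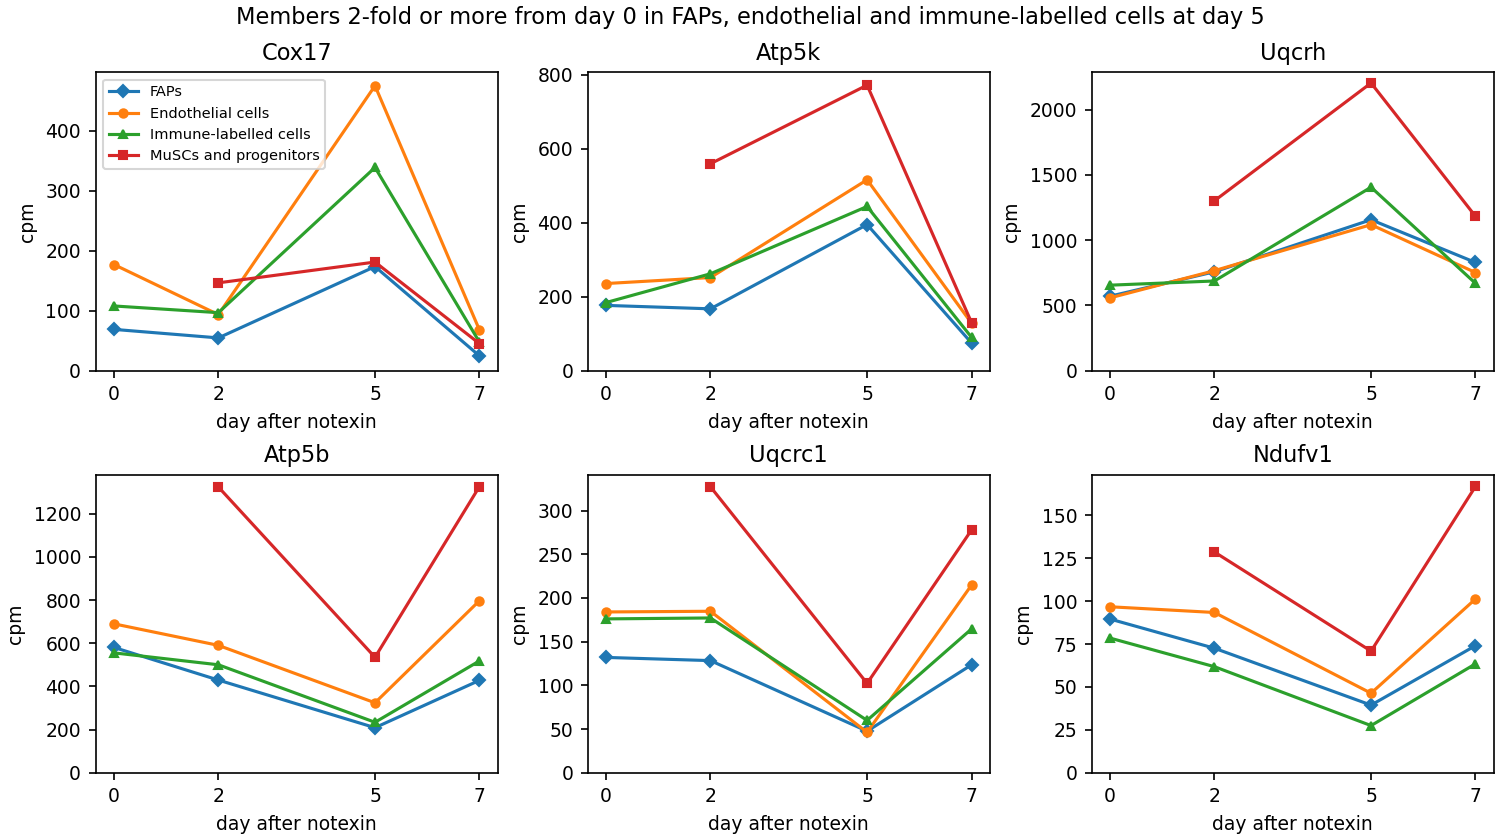
Level in cpm of 6 members by day in FAPs, endothelial cells, immune-labelled cells and MuSCs and progenitors, one summed value per class and day. Cox17, Atp5k and Uqcrh are highest at day 5 in each class shown, and Atp5b, Uqcrc1 and Ndufv1 lowest.

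Among members, day 5 differences also moved with annotated transcript length. Over the 102 members with an annotated length, the log2 ratio of day 5 to day 0 in FAPs had Spearman's rho = −0.53 with the median coding transcript length. The shorter members, up to 722 bases, had a median of 0.27 and the longer ones −0.36. The correlation was −0.34 in endothelial cells and −0.47 in immune-labelled cells at day 5, each over 100 members. At day 7 it was 0.12 over 102 members in FAPs, 0.34 in endothelial cells and 0.35 in immune-labelled cells. These values are descriptions, since members share libraries, and the same relation over all genes was not computed. This length is the median over a gene's annotated coding transcripts and need not be that of the mRNA counted. By this measure some members went the other way in FAPs at day 5, and by the length of the counted mRNA they need not be exceptions. Cox17, at 2067 bases, had a log2 ratio of 1.34, and Uqcrc1, at 533 bases, had −1.47. The day 5 library also had the fewest UMIs a cell and the highest share of ribosomal protein mRNA, which was 14.1% of UMIs at day 0, 18.2% at day 2, 22.1% at day 5 and 15.8% at day 7. The part of depth and of the ribosomal share in the day 5 differences was not tested.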

How the data were processed

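Per the labels, live cells of mouse tibialis anterior were sorted and sequenced with the 10x Chromium 3' v2 kit. Per the submitters' processing notes, Cell Ranger 2, R 3.6.2, Seurat 2.3.4 and build mm10 were used. The authors deposited, for each of the 4 days, raw UMI counts per gene and cell, natural log normalized values, and a table with each cell's type label and its mitochondrial share as a fraction. The deposited natural log values equal ln(1 + 10000 × count / total) within 6.22e-15 in every cell. The 2 day 0 runs were deposited as 1 table and counted as 1 library.

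Counts were summed over the annotated cells of each label, or of each class of labels, and day. FAPs include activated FAPs, and immune-labelled cells include every leukocyte label but not Platelets. Between 9 and 21 barcodes a day without a label were left out. Gene models came from GENCODE M21 (GRCm38), where 102 of 103 members matched by symbol, and promoters from RefSeq (GRCm38.p6). The 8 deposited metadata columns that were not needed were not used.

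A ratio compares summed cpm, with an exact 95% interval from the binomial split of the counts. A count of 0 was replaced by a floor of 3 counts over the group. A gene was called at 2-fold or more with at least 20 UMIs over both groups, and the background is the same rule over all genes. With 1 library a day there was no test, and the 20-UMI rule lets members through on the group where they are high. Depth was checked on cells thinned to 1000 UMIs (seed 1), which left out 1 shallower cell. No doublet caller was run, and leaving out the 5% of cells with most UMIs was tried as an alternative, as were a denominator without mitochondrial and ribosomal protein genes, structural subunits alone, other minimum counts and the deposited normalized values.

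In each comparison, the 3 members at either end of the order of ratios could be named. So could the isoform pairs, the subunit c genes, the complex II subunits and the 2 members of each complex with the most UMIs. Members that moved in 3 classes at once, Cox5a and other members given to complete a count were named after their values were seen. The members, gene lists and comparisons were chosen with earlier results of these data known. Calculations used Python 3.11.15, numpy 2.4.6, scipy 1.17.1 and pandas 2.3.3, and were tested on simulated counts.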

Additional observations from a re-analysis of the deposited data

Results flagged for a closer look

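At day 7 the summed members went in opposite directions in 2 classes set against the same day 0 library. The log2 ratio of day 7 to day 0 was 0.133 in endothelial cells and -0.0461 in immune-labelled cells. In immune-labelled cells the median member ratio was −0.008, with 51 members above 0 and 51 below. Their direction was the reverse with the deposited normalized values, as given below, and the labels pooled in this class differ by day. There was 1 library a day, so the difference between the classes was not tested.

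The 21 day 2 barcodes that had no label in the deposited annotation, and entered no comparison, held 4.53% of their UMIs in members (4.48 to 4.57), with a median of 51552 UMIs a barcode. The unlabelled barcodes held 3.52% at day 0, 2.88% at day 5 and 2.48% at day 7.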

How the results depend on the processing

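Of 171 values recomputed from the summed counts, 112 moved by less than their counting interval (counts by less than 1.5 times), 57 moved further and 2 changed direction; the cause was not tested. A further 14 came from the deposited normalized values, which are natural logs averaged over members, so that only their direction can be set against the log2 ratios of sums. Log2 ratios below are to day 0, for MuSCs and progenitors to day 2 and for mature muscle to FAPs.

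The deposited normalized values, as differences of mean natural logs, turned the direction in 4 cases: FAPs at day 5 (−0.047), endothelial cells at day 5 (−0.049), and immune-labelled cells at day 5 (−0.11) and day 7 (0.044). They gave 0.15 and 0.053 in FAPs at days 2 and 7, 0.21 and 0.17 in endothelial cells at days 2 and 7, 0.24 in immune-labelled cells at day 2, −0.49 and −0.32 in MuSCs at days 5 and 7, 0.11 in tenocytes, and 0.97 and 1.05 in mature muscle at days 5 and 7. FAPs at day 7, at 0.0033, turned to −0.0034 without the 5% of cells with most UMIs and to −0.0051 with structural subunits alone.

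Without mitochondrial and ribosomal protein genes, FAPs stood at 0.37, 0.28 and 0.029 at days 2, 5 and 7, and endothelial cells at 0.23, 0.39 and 0.19. Immune-labelled cells stood at 0.38 and −0.087 at days 5 and 7, MuSCs at −0.17 and −0.56, tenocytes at 0.29, and mature muscle at 2.20 and 2.25. This denominator also moved the median of all genes, in FAPs at day 2 to 0.03, against −0.17.

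Without the 5% of cells with most UMIs, FAPs stood at 0.16 at day 2, immune-labelled cells at −0.069 at day 7, MuSCs at −0.44 and −0.45 at days 5 and 7, and mature muscle at 2.34 and 2.36. With structural subunits alone, immune-labelled cells stood at 0.34 at day 2, MuSCs at −0.49 at day 7, tenocytes at 0.29 and mature muscle at 2.45 at day 7. Members past 2-fold then numbered 0 and 1 in endothelial cells at days 2 and 7, 1 and 3 in immune-labelled cells at days 2 and 7, and 8 in MuSCs at day 7, from fewer members by construction. A minimum of 50 UMIs left 3 in endothelial cells at day 2, and no minimum gave 5 in tenocytes.

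With cells thinned to 1000 UMIs, FAPs stood at 0.14 and 0.17 at days 2 and 5, endothelial cells at 0.11 at day 7, immune-labelled cells at −0.062 at day 7 and MuSCs at −0.42 at day 5. Members past 2-fold numbered 9 in immune-labelled cells at day 2, against 4, and 11 in tenocytes, against 3. The member share was 2.76% (Endothelial), 2.34% (Immune), 5.58% (Neural/Glial/Schwann cells) and 3.76% (Smooth muscle cells) at day 0. It was 2.53% (B cells), 2.45% (FAPs), 3.01% (Immune), 2.44% (Macrophages/APCs) and 4.86% (MuSCs and progenitors) at day 2. It was 2.64% (Anti-inflammatory macrophages), 2.52% (FAPs), 2.67% (Macrophages/APCs/T-cells) and 3.63% (MuSCs and progenitors) at day 5. It was 2.15% (Anti-inflammatory macrophages), 2.98% (Endothelial), 2.27% (FAPs (activated)), 2.23% (Macrophages/APCs), 1.98% (Macrophages/APCs 2), 3.52% (MuSCs and progenitors) and 2.79% (NK/T cells) at day 7.

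No paired analysis was possible because each day had 1 library and there was no test, and there was no replicate to leave out. Intervals cover counting error only. A member with few UMIs in 1 group can pass 2-fold by counting error, which bears most on the 40 day 5 MuSCs and progenitors, the 58 endothelial cells of day 2 and the 88 tenocytes of day 7 and 70 of day 0.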
